A study of Mus musculus with 6 samples.

Results

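Collagens, matrix proteins and the proteases and protease inhibitors of the extracellular matrix were examined in gastrocnemius, a hindlimb calf muscle, of Nogo-/- and Nogo+/+ mice. Members were the mouse protein-coding genes whose symbol is a collagen chain, or begins with Lama, Lamb, Lamc, Adamts, Mmp or Timp followed by a digit, together with 19 named matrix genes such as *Fn1*, *Sparc*, *Dcn* and *Eln*. The genome annotation holds 119 such genes, and 78 of them have a row among the 12353 genes of the deposited table. The other 41, among them *Col2a1*, *Mmp3*, *Mmp8* and *Mmp13*, were not analysed here. The rule used names only and no measured value, but it was chosen with earlier results of these data known.

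RNA sequencing was performed on 3 Nogo-/- muscles (Samples 4, 5 and 6) and on 3 Nogo+/+ muscles (Samples 1, 2 and 3), described as biological replicates. Nogo is the product of *Rtn4*, and the Nogo-/- animals lack it in the whole body rather than in muscle fibers only. The Nogo+/+ animals are labelled wild-type. The knockout line came from another laboratory. No injury or treatment is given for these muscles, and the age, sex and strain of the sequenced mice are not given in the sources used here. The study's methods name C57BL/6J for the Nogo+/+ mice of its injury experiment, without tying them to these libraries. Values are FPKM, fragments scaled to transcript length and to the number of mapped fragments, which correct for transcript length and for sequencing depth, so that levels of different genes can be set side by side.

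The extracellular matrix of muscle is a layered scaffold. Fibrillar collagens form the cables of the connective tissue around fibers and fascicles, whereas type IV collagen, laminins, nidogens and perlecan form the basement membrane that wraps each muscle fiber and each capillary. Matrix metalloproteinases (MMPs) and the ADAMTS enzymes cut these proteins, and tissue inhibitors of metalloproteinases (TIMPs) are secreted proteins that block the active site of these enzymes. In muscle most fibrillar collagen is made by fibroblasts and their progenitors, and capillary basement membrane is made with the endothelium.

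The genotype labels were borne out by the targeted gene, since *Rtn4* had 0.423, 0.312 and 0.368 FPKM in the Nogo-/- libraries and 414, 429 and 425 FPKM in the Nogo+/+ libraries. Depth was alike, with an estimated 13692000 to 14412000 fragments in Nogo-/- libraries and 13466000 to 14352000 fragments in Nogo+/+ libraries. Sample 6 stood apart on the first principal component of all genes, at 25.9 against 6.11 and 7.22 in the other Nogo-/- libraries and -14.2 to -12.5 in the Nogo+/+ libraries. The summed FPKM of 8 muscle fiber markers was 27508 to 29317 in Nogo-/- muscle and 28973 to 29661 in Nogo+/+ muscle, so the markers of the labelled tissue were abundant in all 6 libraries. Other tissues seen in single libraries were skin, with 11 epithelial markers summing to 278 FPKM in Sample 6 against 6.51 to 18.8 FPKM in the other 5 libraries, and neutrophils, with 4 markers summing to 16.7 FPKM in Sample 5 against at most 2.28 FPKM elsewhere. The bone marker *Bglap* had 3.82 FPKM in Sample 5 (an estimated 24 fragments) and 0 FPKM in the other 5 libraries.

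Of the matrix genes 72 of 78 did not pass the test between Nogo-/- and Nogo+/+ muscle, and the smallest p-values belonged to 2 of the 4 protease inhibitors. *Timp3* was 1.81 times and *Timp4* 1.98 times as high in Nogo-/- muscle, and *Lama5*, which encodes the laminin alpha-5 chain, was 1.54 times as high. *Col4a1*, the main chain of the type IV collagen network, *Mmp15*, a membrane-bound metalloproteinase, and *Adamts15*, a proteoglycan-cutting enzyme, were lower, at 79.6%, 76.6% and 51.7% of the Nogo+/+ mean. None of the 10 fibrillar collagen chains passed the test. The test was limma's moderated test on log2(FPKM + 1) after quantile normalization, with Benjamini-Hochberg adjustment over all 12353 genes and a threshold of 0.05.

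In total 6 of the 78 genes (7.69%) passed, against 573 of all genes (4.64%). Higher in Nogo-/- muscle were 3, where the share over all genes was 1.89%, and lower were 3, where the share was 2.75%. Without quantile normalization, 302 genes of the table were higher and 234 lower (56.3% higher, against 40.7% with it), and the split among the matrix genes became 3 higher and 0 lower. The FPKM of the groups did not overlap for 14 of the 78 genes (17.9%), a smaller share than the 25.9% of all genes. At an unadjusted limma p under 0.05 were 15 of the 78 genes, and 2529 of all 12353 genes. Counts at an unadjusted p given below are to be read beside that share of all genes. The median log2 fold change of the matrix genes was -0.04, against -0.01 over all genes, and 62 of the 78 (79.5%) lay within 0.25 of 0 on the log2 scale, against 83.7% of all genes.

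**Figure D1:**
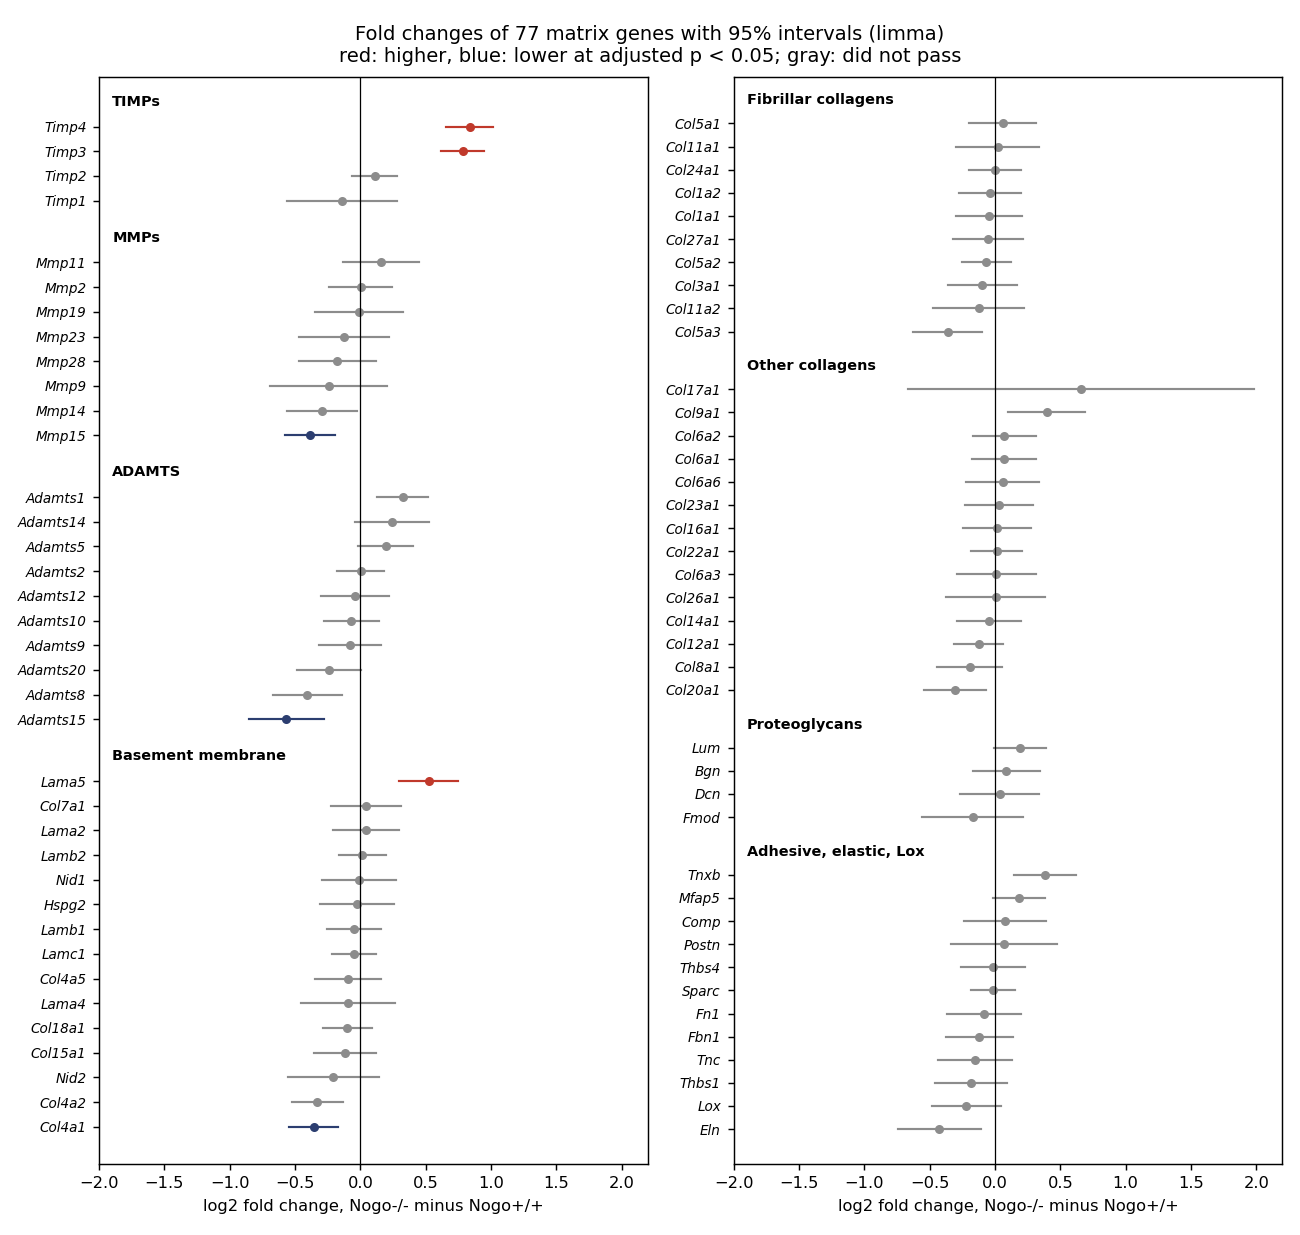
Log2 fold change of 77 of the 78 matrix genes in Nogo-/- against Nogo+/+ muscle, grouped by role, with 95% intervals from limma. *Timp4* (0.84) and *Timp3* (0.78) lie farthest to the right among genes past the threshold and *Adamts15* (-0.57) farthest to the left, while most genes lie close to 0.

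*Timp3* had the smallest p of the 78 genes. TIMP3 differs from the other inhibitors in that it binds to the matrix itself, and it blocks ADAMTS and ADAM enzymes besides MMPs. *Timp3* had 46.0, 41.3 and 41.7 FPKM in Nogo-/- muscle, against 21.8, 24.3 and 25.2 FPKM in Nogo+/+ muscle. Every Nogo-/- library lay above every Nogo+/+ library, and the gap between the groups was wider than the spread inside either. The log2 fold change was 0.78 (SE 0.07, n = 3 per group, limma adjusted p = 0.000801).

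*Timp4* is the inhibitor best known from heart, skeletal muscle and fat. It had 12.9, 11.3 and 10.9 FPKM in Nogo-/- muscle, against 6.23, 6.12 and 5.42 FPKM in Nogo+/+ muscle. Here too the groups were fully separated, with a log2 fold change of 0.84 (SE 0.08, limma adjusted p = 0.00092). Leaving out any 1 library kept both inhibitors past the threshold, with adjusted p of 0.00274 to 0.00692 for *Timp3* and 0.00358 to 0.00728 for *Timp4*.

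The remaining members of the family did not follow. *Timp2*, which takes part in the activation of pro-MMP2 at the cell surface, had 42.8, 38.96 and 34.6 FPKM in Nogo-/- muscle, against 36.1, 34.7 and 32.6 FPKM in Nogo+/+ muscle. The ranges overlapped and the log2 fold change was 0.11 (95% interval -0.06 to 0.28, limma adjusted p = 0.476). *Timp1*, the inhibitor most often induced in inflamed tissue, had 2.71, 1.33 and 2.82 FPKM in Nogo-/- muscle and 2.38, 2.22 and 2.84 FPKM in Nogo+/+ muscle. Its lowest value was that of Sample 5, and the log2 fold change was -0.14 (95% interval -0.57 to 0.28).

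The order of levels within the family therefore differed between genotypes. In Nogo-/- muscle *Timp3* stood above *Timp2* in all 3 libraries (ratios of 1.08, 1.06 and 1.205), whereas in Nogo+/+ muscle it stood below *Timp2* in all 3 (0.603, 0.701 and 0.771). The 4 inhibitors summed to 104, 92.9 and 90.0 FPKM in Nogo-/- muscle and to 66.4, 67.3 and 66.1 FPKM in Nogo+/+ muscle. The 8 MMP genes summed to 62.2, 59.9 and 47.9 FPKM in Nogo-/- muscle and to 65.8, 55.2 and 56.8 FPKM in Nogo+/+ muscle. The ratio of summed inhibitor to summed MMP transcripts was 1.68, 1.55 and 1.88 in Nogo-/- muscle, against 1.01, 1.22 and 1.16 in Nogo+/+ muscle. These ratios rest on *Timp3* and *Timp4*, which were among the genes that passed, and were not tested on their own.

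**Figure D2:**
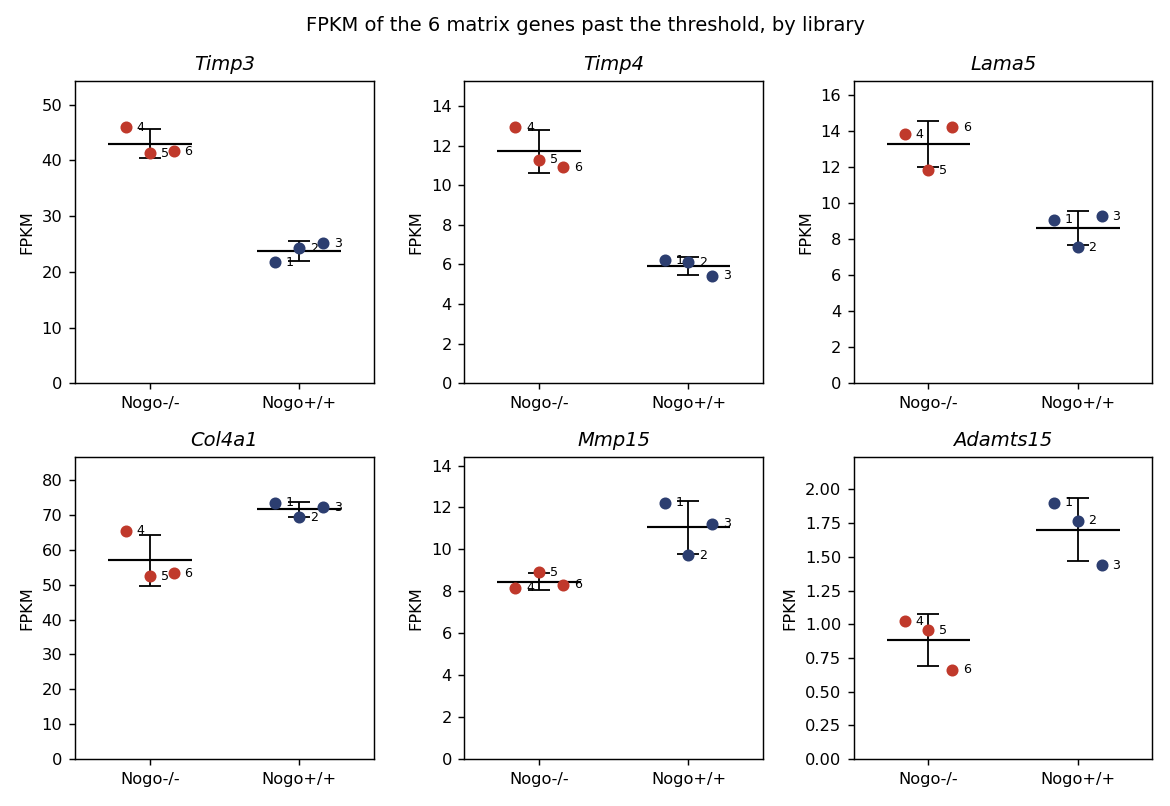
FPKM of the 6 matrix genes past the threshold, per library (points, with the library number), with the mean and SD of 3 libraries, Nogo-/- on the left and Nogo+/+ on the right of each panel, each axis starting at 0. In every panel the 3 Nogo-/- points lie wholly above (*Timp3*, *Timp4*, *Lama5*) or wholly below (*Col4a1*, *Mmp15*, *Adamts15*) the Nogo+/+ points.

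The promoters of *Timp3* and *Timp4* are shown because these genes moved together most strongly. The sequences are the 250 bases before each gene's start, taken from RefSeq on GRCm38.p6 and written 5′ to 3′ on the gene's own strand. *Timp3* lies on the plus strand of chromosome 10 (chr10:86300162-86300411) and *Timp4* on the minus strand of chromosome 6 (chr6:115252206-115252455). Capitals mark matches to the motifs searched.
Timp3: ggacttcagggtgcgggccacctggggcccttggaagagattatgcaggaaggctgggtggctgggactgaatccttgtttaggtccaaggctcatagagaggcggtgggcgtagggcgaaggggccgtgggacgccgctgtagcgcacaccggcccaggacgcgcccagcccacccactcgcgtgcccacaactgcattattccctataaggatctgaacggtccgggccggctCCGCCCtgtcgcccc
Timp4: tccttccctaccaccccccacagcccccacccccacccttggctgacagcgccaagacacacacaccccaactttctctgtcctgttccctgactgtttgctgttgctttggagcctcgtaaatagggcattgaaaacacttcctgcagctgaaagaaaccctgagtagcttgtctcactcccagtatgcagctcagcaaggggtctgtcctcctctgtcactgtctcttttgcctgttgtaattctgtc
On both strands 4 motifs were searched, namely the GC box GGGCGG (present in 32.7% of 32851 mouse promoters of the same length), the TATA box TATAAA (12.4%), the E-box CACGTG (6.02%) and the CCAAT box (33.8%). The *Timp3* window, with 65.6% GC, held 1 GC box, read on the opposite strand 15 bases before the RefSeq start. The genome annotation used for the other genes starts *Timp3* at 86300372, inside this window, and the GC box lies after that start. The *Timp4* window, with 53.6% GC, held none of the 4 motifs. The RefSeq table had a window for 53 of the 78 genes, including 5 of the 6 that passed. It had no entry for *Adamts15*.

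Among the proteases of the MMP family, 1 of the 8 measured genes passed. *Mmp15* encodes MT2-MMP, which sits in the cell membrane and cuts matrix next to the cell. It had 8.17, 8.90 and 8.32 FPKM in Nogo-/- muscle, against 12.2, 9.71 and 11.2 FPKM in Nogo+/+ muscle. All Nogo-/- libraries were lower, but Sample 2 of the Nogo+/+ group came close to them. The log2 fold change was -0.39 (SE 0.08, limma adjusted p = 0.0390), and with 1 library left out the gene passed only without Sample 2 (adjusted p = 0.0422), the others giving up to 0.137.

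*Mmp14*, the related membrane-type protease MT1-MMP and an activator of pro-MMP2, had 8.45, 6.35 and 5.84 FPKM in Nogo-/- muscle and 9.24, 8.22 and 7.56 FPKM in Nogo+/+ muscle. The groups overlapped at Sample 4, and the log2 fold change of -0.29 did not pass (limma adjusted p = 0.204). *Mmp2*, gelatinase A and the most abundant MMP transcript here, averaged 33.2 ± 4.88 FPKM in Nogo-/- muscle and 31.5 ± 3.43 FPKM in Nogo+/+ muscle (SD, n = 3 each), with a log2 fold change of 0.00 (95% interval -0.24 to 0.24). *Mmp9*, the gelatinase carried by neutrophils, was near the detection limit of the table, with 0.690, 1.14 and 0.436 FPKM in Nogo-/- muscle and 0.864, 0.815 and 1.10 FPKM in Nogo+/+ muscle. Its highest value was in Sample 5, the library with the neutrophil markers, and the part of those cells in it was not tested. The other 4 MMP genes (*Mmp11*, *Mmp19*, *Mmp23* and *Mmp28*) averaged 2.99 FPKM or less in each group and did not pass.

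The ADAMTS enzymes, which cut proteoglycans and process procollagens, had 1 of 10 measured genes past the threshold. *Adamts15* had 1.02, 0.955 and 0.661 FPKM in Nogo-/- muscle, against 1.90, 1.77 and 1.44 FPKM in Nogo+/+ muscle. The groups did not overlap, and the log2 fold change was -0.57 (SE 0.13, limma adjusted p = 0.0432). The gene rested on an estimated 54 to 156 fragments per library and did not pass with any library left out (adjusted p of 0.0713 to 0.164). Because 1 was added to every FPKM, this fold change understates that of so low a gene, and with 0.1 added it was -0.96.

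*Adamts1*, a versican- and aggrecan-cutting enzyme, had 10.9, 10.8 and 8.44 FPKM in Nogo-/- muscle, against 7.69, 7.17 and 7.71 FPKM in Nogo+/+ muscle, so that the groups were separated upward. Its log2 fold change of 0.32 missed the threshold (limma adjusted p = 0.0749), which it reached when Sample 6 was left out (adjusted p = 0.0283). *Adamts8* was separated downward, with 1.85, 1.28 and 1.95 FPKM in Nogo-/- muscle and 2.46, 2.51 and 2.45 FPKM in Nogo+/+ muscle, and did not pass either (-0.41, adjusted p = 0.0944). *Adamts2*, the procollagen N-proteinase, was at 4.43 ± 0.522 FPKM in Nogo-/- muscle and 4.33 ± 0.237 FPKM in Nogo+/+ muscle (SD, n = 3 each).

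Of the 16 measured basement membrane genes, 1 was higher, 1 lower and 14 did not pass. *Lama5* encodes the alpha-5 chain found in laminins of blood vessels, epithelia and synapses. It had 13.8, 11.8 and 14.2 FPKM in Nogo-/- muscle, against 9.08, 7.55 and 9.28 FPKM in Nogo+/+ muscle. The lowest Nogo-/- value lay above the highest Nogo+/+ value, and the log2 fold change was 0.52 (SE 0.10, limma adjusted p = 0.0233). With 1 library left out the gene passed only without Sample 5 (adjusted p = 0.0180), and the highest adjusted p, 0.0960, came without Sample 2. Sample 6, which had the skin markers, was the highest library for *Lama5*, and without it the log2 fold change was 0.46 (adjusted p = 0.0612).

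The other laminin chains did not pass. *Lama2*, the alpha chain of the muscle fiber basement membrane whose loss causes merosin-deficient muscular dystrophy, had 13.6, 13.5 and 9.67 FPKM in Nogo-/- muscle and 11.3, 11.7 and 11.1 FPKM in Nogo+/+ muscle (log2 fold change 0.04, 95% interval -0.21 to 0.30). *Lama5* stood above *Lama2* in Samples 4 and 6 of the Nogo-/- group (ratios of 1.02 and 1.47) and below it in Sample 5 (0.874), whereas all 3 Nogo+/+ libraries had *Lama5* below *Lama2* (0.805, 0.647 and 0.833). *Lamc1*, the gamma chain shared by most laminins, averaged 43.4 ± 3.92 FPKM in Nogo-/- muscle and 43.4 ± 3.04 FPKM in Nogo+/+ muscle. *Lamb2*, the beta chain enriched at the neuromuscular junction, averaged 41.1 ± 0.807 FPKM in Nogo-/- muscle and 39.4 ± 4.60 FPKM in Nogo+/+ muscle.

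*Col4a1* pairs with *Col4a2* in the collagen IV heterotrimer of all basement membranes. It had 65.5, 52.4 and 53.3 FPKM in Nogo-/- muscle, against 73.5, 69.3 and 72.2 FPKM in Nogo+/+ muscle. The 3 Nogo+/+ libraries were close together, and all Nogo-/- libraries lay below them, Sample 4 least so. The log2 fold change was -0.36 (SE 0.08, limma adjusted p = 0.0479). With 1 library left out it passed only without Sample 4 (-0.46, adjusted p = 0.00436), and the other 5 gave adjusted p of up to 0.149.

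Its partner *Col4a2*, named here for that pairing after its values were seen, had 37.9, 31.9 and 30.2 FPKM in Nogo-/- muscle and 43.2, 37.3 and 40.6 FPKM in Nogo+/+ muscle. The groups overlapped at a single pair of libraries, and the log2 fold change of -0.33 did not pass (limma adjusted p = 0.0688), although it did without Sample 4 (adjusted p = 0.0231). The ratio of *Col4a1* to *Col4a2* was 1.71 ± 0.0611 in Nogo-/- muscle and 1.78 ± 0.0777 in Nogo+/+ muscle (SD, n = 3 each), so the level of one followed that of the other in both genotypes. Both genes lie head to head on chromosome 8 and their gene models share 22 bases. *Col4a5*, a chain of a minor collagen IV network, was at 1.60 ± 0.300 FPKM in Nogo-/- muscle and 1.72 ± 0.134 FPKM in Nogo+/+ muscle.

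Markers of the vessel wall were lower in the same libraries. Of 7 endothelial markers 5 fell (*Kdr*, *Emcn*, *Cdh5*, *Pecam1* and *Tek*) and none rose. That is 71.4% lower, against 2.75% of all genes. The 7 markers summed to 107, 97.3 and 88.8 FPKM in Nogo-/- muscle, against 139, 123 and 124 FPKM in Nogo+/+ muscle. *Kdr*, the main receptor for vascular endothelial growth factor, averaged 7.63 ± 1.401 FPKM in Nogo-/- muscle and 14.8 ± 0.516 FPKM in Nogo+/+ muscle (log2 fold change -0.92, limma adjusted p = 0.00192), and it passed with any 1 library left out, whereas the other 4 did so in 1 or 2 of 6 cases. Among 7 genes that mark mural cells of vessels (smooth muscle and pericytes), *Pdgfrb* and *Acta2* were the ones that fell (28.6%, against 2.75% of all genes). They passed in 1 and in 2 of the 6 cases with a library left out. The list summed to 212, 213 and 169 FPKM in Nogo-/- muscle and 239, 234 and 242 FPKM in Nogo+/+ muscle. Without quantile normalization *Pecam1*, *Tek* and *Pdgfrb* did not pass (limma adjusted p = 0.0549, 0.0804 and 0.112), and without a trend only *Kdr* and *Emcn* of these vessel markers did. In whole muscle, fewer cells of a type and less RNA per cell cannot be told apart, and the part of the vessel wall in the values of *Col4a1*, *Col4a2*, *Lama5* and *Mmp15* was not tested.

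The remaining basement membrane genes did not pass. *Hspg2*, which encodes perlecan and was the second most abundant of the group, had 78.6, 61.0 and 54.9 FPKM in Nogo-/- muscle and 70.5, 56.8 and 62.4 FPKM in Nogo+/+ muscle (log2 fold change -0.03, turning to 0.02 without quantile normalization). *Nid1* and *Nid2*, the nidogens that link laminin to collagen IV, had log2 fold changes of -0.01 and -0.21. *Col15a1* and *Col18a1*, whose cleaved ends act as inhibitors of vessel growth, had log2 fold changes of -0.12 and -0.10, and *Col7a1*, the anchoring fibril collagen, 0.04.

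The fibrillar collagens were the most abundant collagens of the muscle, and none of the 10 measured chains passed limma's adjusted test, with 1 at an unadjusted p under 0.05. *Col1a1* and *Col1a2* encode the chains of type I collagen, the main component of tendon and of scar. *Col1a1* had 88.5, 70.5 and 63.0 FPKM in Nogo-/- muscle and 79.4, 68.8 and 70.8 FPKM in Nogo+/+ muscle. The Nogo-/- libraries spanned the whole Nogo+/+ range, with a log2 fold change of -0.04 (95% interval -0.30 to 0.21), turning to 0.01 without quantile normalization. *Col1a2* had 108, 88.5 and 75.4 FPKM in Nogo-/- muscle and 92.3, 89.0 and 88.5 FPKM in Nogo+/+ muscle (-0.04, 95% interval -0.28 to 0.20). The intervals of both chains leave room for differences of up to about 0.30 on the log2 scale.

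The chains of type I collagen kept their proportion, with a *Col1a2* to *Col1a1* ratio of 1.22 ± 0.0299 in Nogo-/- muscle and 1.24 ± 0.0667 in Nogo+/+ muscle (SD, n = 3 each). *Col3a1*, the collagen of fine reticular fibers and the most abundant of the 30 collagen chains, had 134, 97.7 and 93.3 FPKM in Nogo-/- muscle and 118, 107 and 111 FPKM in Nogo+/+ muscle. Sample 4 lay above all Nogo+/+ libraries and the other Nogo-/- libraries below them, and the log2 fold change was -0.10 (limma adjusted p = 0.698). Without Sample 4 it was -0.25 and passed (adjusted p = 0.0454).

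*Col5a3* encodes a minor type V chain that regulates fibril diameter with type I collagen. It had 15.4, 12.4 and 10.7 FPKM in Nogo-/- muscle and 18.0, 15.2 and 15.3 FPKM in Nogo+/+ muscle, the smallest p of the fibrillar chains. Its log2 fold change of -0.36 did not pass (limma adjusted p = 0.124), although it did without Sample 4 (-0.48, adjusted p = 0.0424). The type V chains *Col5a1* and *Col5a2* had log2 fold changes of 0.06 and -0.07, and the cartilage-type chains *Col11a1* and *Col11a2* of 0.02 and -0.12. The 10 fibrillar chains together summed to 380, 297 and 266 FPKM in Nogo-/- muscle and 337, 307 and 313 FPKM in Nogo+/+ muscle.

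**Figure D3:**
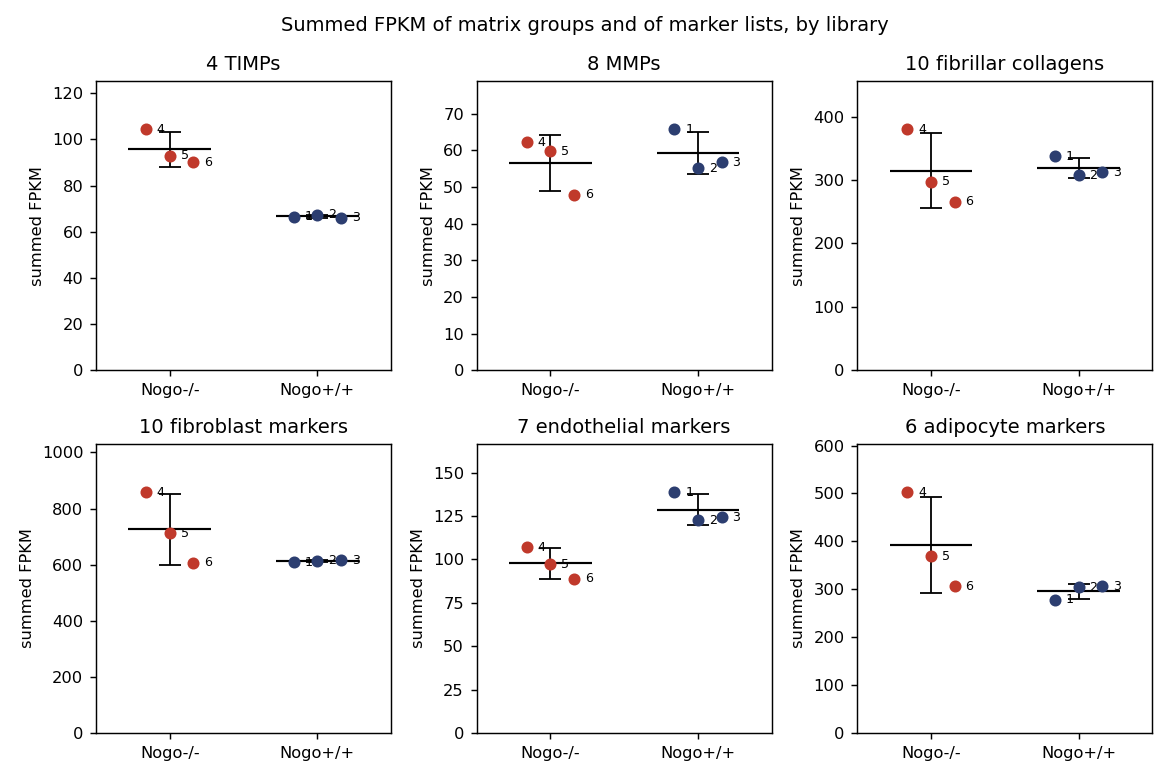
Summed FPKM of 3 role groups (top) and of fibroblast, endothelial and adipocyte markers (bottom) per library (points, with the library number), with the mean and SD of 3 libraries, Nogo-/- left and Nogo+/+ right in each panel, each axis starting at 0. The TIMP sums are separated (90.0 to 104 against 66.1 to 67.3 FPKM), whereas the fibrillar collagen sums of Nogo-/- muscle (266 to 380 FPKM) span those of Nogo+/+ muscle (307 to 337 FPKM).

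The 14 other collagens, which decorate fibrils, form the beaded filaments of type VI or cross the cell membrane, held no gene past the threshold and 2 at an unadjusted p under 0.05 by limma. *Col6a1* and *Col6a2*, whose mutations cause Ullrich and Bethlem myopathies, averaged 31.98 ± 5.24 and 32.5 ± 4.80 FPKM in Nogo-/- muscle and 29.0 ± 2.75 and 29.5 ± 3.08 FPKM in Nogo+/+ muscle (SD, n = 3 each). Their ratio was 0.983 ± 0.0472 in Nogo-/- muscle and 0.986 ± 0.0410 in Nogo+/+ muscle, and both log2 fold changes were 0.07. *Col6a3*, the third chain, had a log2 fold change of 0.01, and *Col22a1*, a collagen of the myotendinous junction, also 0.01.

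The smallest p of this group belonged to *Col9a1*, a fibril-associated chain best known from cartilage. It had 2.98, 1.93 and 2.75 FPKM in Nogo-/- muscle, against 1.44, 1.65 and 1.75 FPKM in Nogo+/+ muscle. The groups did not overlap, yet the log2 fold change of 0.39 did not pass (limma adjusted p = 0.134) and did so without Sample 5 (adjusted p = 0.0464). *Col20a1*, a little studied fibril-associated chain, had 2.12, 1.798 and 1.496 FPKM in Nogo-/- muscle and 2.603, 2.40 and 2.09 FPKM in Nogo+/+ muscle (-0.31, adjusted p = 0.152).

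A single library set the value of *Col17a1*, the transmembrane collagen of the hemidesmosome that anchors skin epithelium. It had 0.0920, 0.321 and 5.42 FPKM in Nogo-/- muscle and 0.111, 0.571 and 0.202 FPKM in Nogo+/+ muscle. The high value was that of Sample 6, the library in which the skin markers summed to 278 FPKM, and the part of skin in it was not tested. The log2 fold change of 0.66 (limma adjusted p = 0.584) turned to -0.16 without Sample 6.

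The small leucine-rich proteoglycans bind collagen fibrils and control their spacing, and none of the 4 passed, also at an unadjusted limma p under 0.05. *Dcn*, which encodes decorin, a proteoglycan that also binds TGF-beta, had 275, 217 and 169 FPKM in Nogo-/- muscle and 207, 205 and 199 FPKM in Nogo+/+ muscle. *Fmod*, which encodes fibromodulin, abundant in tendon, had 60.5, 44.9 and 33.6 FPKM in Nogo-/- muscle and 48.3, 51.1 and 49.6 FPKM in Nogo+/+ muscle. In both genes Sample 4 lay above and Sample 6 below the tightly grouped Nogo+/+ libraries. *Lum*, for lumican, had a log2 fold change of 0.19 (limma adjusted p = 0.262) and *Bgn*, for biglycan, of 0.09.

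Among the 12 adhesive, matricellular and elastic fiber proteins, again none passed, with 2 at an unadjusted limma p under 0.05. *Sparc*, a collagen-binding matricellular protein and the most abundant of all 78 transcripts, had 336, 274 and 255 FPKM in Nogo-/- muscle and 285, 274 and 284 FPKM in Nogo+/+ muscle (log2 fold change -0.02, turning to 0.03 without quantile normalization). *Thbs4*, a thrombospondin of the myotendinous junction, averaged 29.0 ± 4.99 FPKM in Nogo-/- muscle and 27.9 ± 0.430 FPKM in Nogo+/+ muscle (SD, n = 3 each). *Fn1*, fibronectin, averaged 20.2 ± 4.33 FPKM in Nogo-/- muscle and 20.4 ± 1.72 FPKM in Nogo+/+ muscle. These 3 adhesive proteins thus had group means that differed by less than the spread among Nogo-/- libraries.

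The 2 members of this group whose libraries were separated went opposite ways. *Tnxb*, which encodes tenascin-X, a fibril-linking protein whose loss causes a form of Ehlers-Danlos syndrome, had 12.0, 11.1 and 8.73 FPKM in Nogo-/- muscle, against 8.45, 7.16 and 7.16 FPKM in Nogo+/+ muscle (log2 fold change 0.39, limma adjusted p = 0.0804). *Eln*, elastin of vessel walls and elastic fibers, had 19.7, 21.1 and 13.8 FPKM in Nogo-/- muscle, against 26.9, 22.2 and 21.8 FPKM in Nogo+/+ muscle (-0.43, adjusted p = 0.134). *Tnxb* passed without Sample 6 (adjusted p = 0.0330), and *Eln* passed with no library left out. *Fbn1*, *Mfap5* and *Lox*, which build or crosslink elastic fibers, had log2 fold changes of -0.12, 0.18 and -0.22, and *Postn*, *Tnc*, *Thbs1* and *Comp*, matricellular proteins of remodeling tissue and tendon, of 0.07, -0.15, -0.19 and 0.08.

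**Figure D4:**
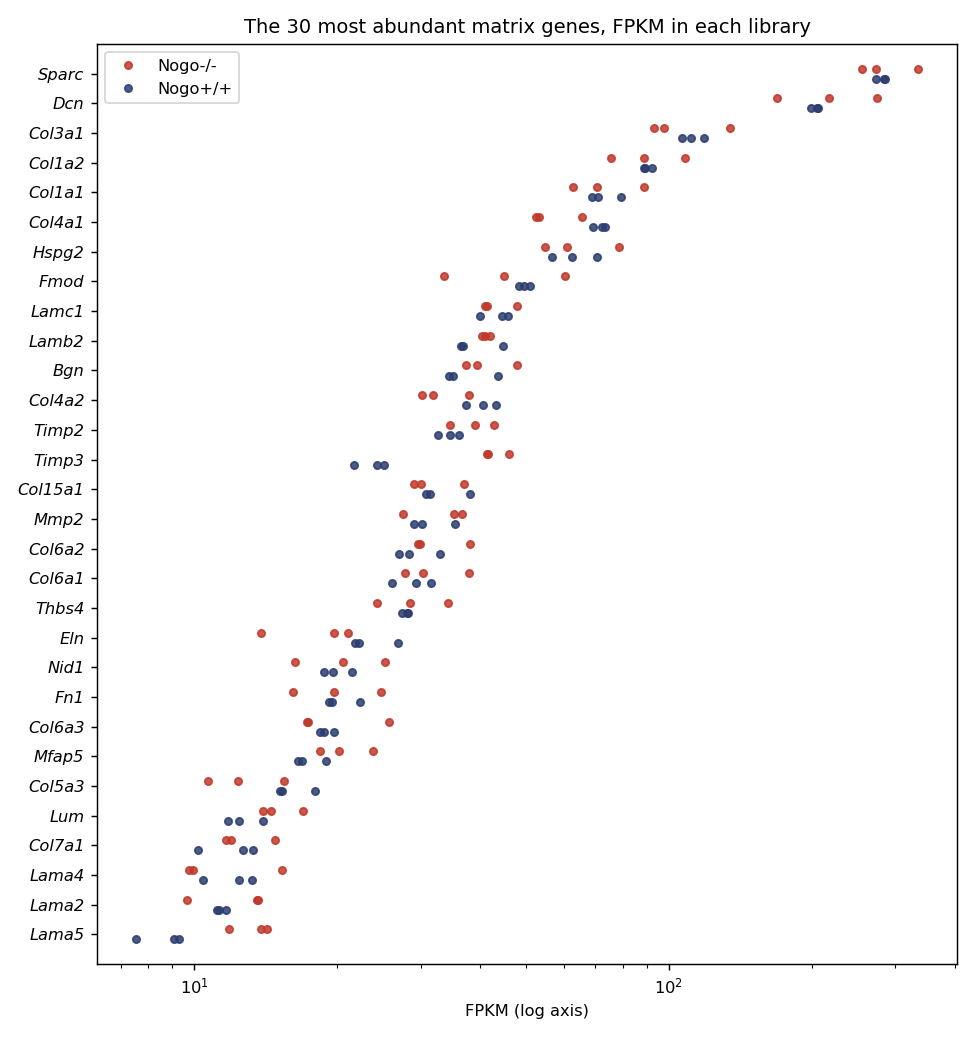
FPKM in each library of the 30 most abundant of the 78 matrix genes, on a logarithmic axis, ordered by mean FPKM, with Nogo-/- libraries as red points above the Nogo+/+ libraries in blue. *Sparc* and *Dcn* stand at the top (255 to 336 and 169 to 275 FPKM in Nogo-/-, 274 to 285 and 199 to 207 FPKM in Nogo+/+ muscle), and *Timp3* and *Lama5* are the genes shown with all Nogo-/- points to the right of all Nogo+/+ points.

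The abundance of matrix transcripts was concentrated in few genes, the top 5 holding 45.47% and the top 10 holding 60.82% of the summed FPKM of the 78. At the other end 18 of the 78 averaged under 2 FPKM. The table keeps genes that reach 1 FPKM in at least 1 library, and 75 of the 78 did so in both groups. *Adamts14*, a procollagen-processing enzyme, and *Col17a1* reached it only in Nogo-/- muscle, so they entered the table through 1 group.

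The matrix genes varied together among the Nogo-/- libraries. Sample 4 had the highest FPKM of the 3 for 62 of the 78 genes (79.5%, against 41.7% of all genes), and Sample 6 the lowest for 50 (64.1%, against 47.1%). The median SD of log2(FPKM + 1) was 0.194 among Nogo-/- libraries and 0.107 among Nogo+/+ libraries for these genes, and 0.103 and 0.0847 for all genes. For 63 of the 78 (80.8%, against 60.3% of all genes) the spread was larger in Nogo-/- muscle. The inhibitors *Timp3* and *Timp4* shared the high value of Sample 4, but their lowest Nogo-/- values were still well above every Nogo+/+ value.

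The sums of fibroblast, adipocyte and tendon markers were likewise highest in Sample 4 and lowest in Sample 6 among the Nogo-/- libraries. Single markers could differ, *Pi16* being highest (23.0 FPKM) and *Thy1* lowest (13.8 FPKM) in Sample 5. The 10 fibroblast markers summed to 859, 711 and 607 FPKM in Nogo-/- muscle and 609, 614 and 616 FPKM in Nogo+/+ muscle, with none past the limma threshold and 0 at an unadjusted p under 0.05. None of the 6 adipocyte markers passed either, but all had a positive log2 fold change (median 0.64). At an unadjusted limma p under 0.05 were 4 of them, against 2529 of all 12353 genes. The groups did not overlap for 4 (66.7%, against 25.9% of all genes). The levels of all 6 summed to 503, 369 and 306 FPKM in Nogo-/- muscle and 278, 304 and 306 FPKM in Nogo+/+ muscle. In Sample 6 that sum, of which *Fabp4* made up 257 FPKM, lay within the Nogo+/+ range. The 4 separated markers were above every Nogo+/+ library there too, *Cidec* with 13.1 FPKM against 5.83 to 9.38 FPKM. *Timp4*, at 10.9 FPKM, and *Timp3*, at 41.7 FPKM, were also above every Nogo+/+ library in Sample 6. The 6 measured tendon markers summed to 43.3, 33.1 and 26.2 FPKM in Nogo-/- muscle and 37.9, 39.6 and 39.1 FPKM in Nogo+/+ muscle. Of 10 cartilage and bone markers only 2 were measured, *Alpl* and *Bglap*, and *Bglap* was above 0 FPKM only in Sample 5. The part of these cell types in the matrix values, *Timp4* included, was not tested.

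**Figure D5:**
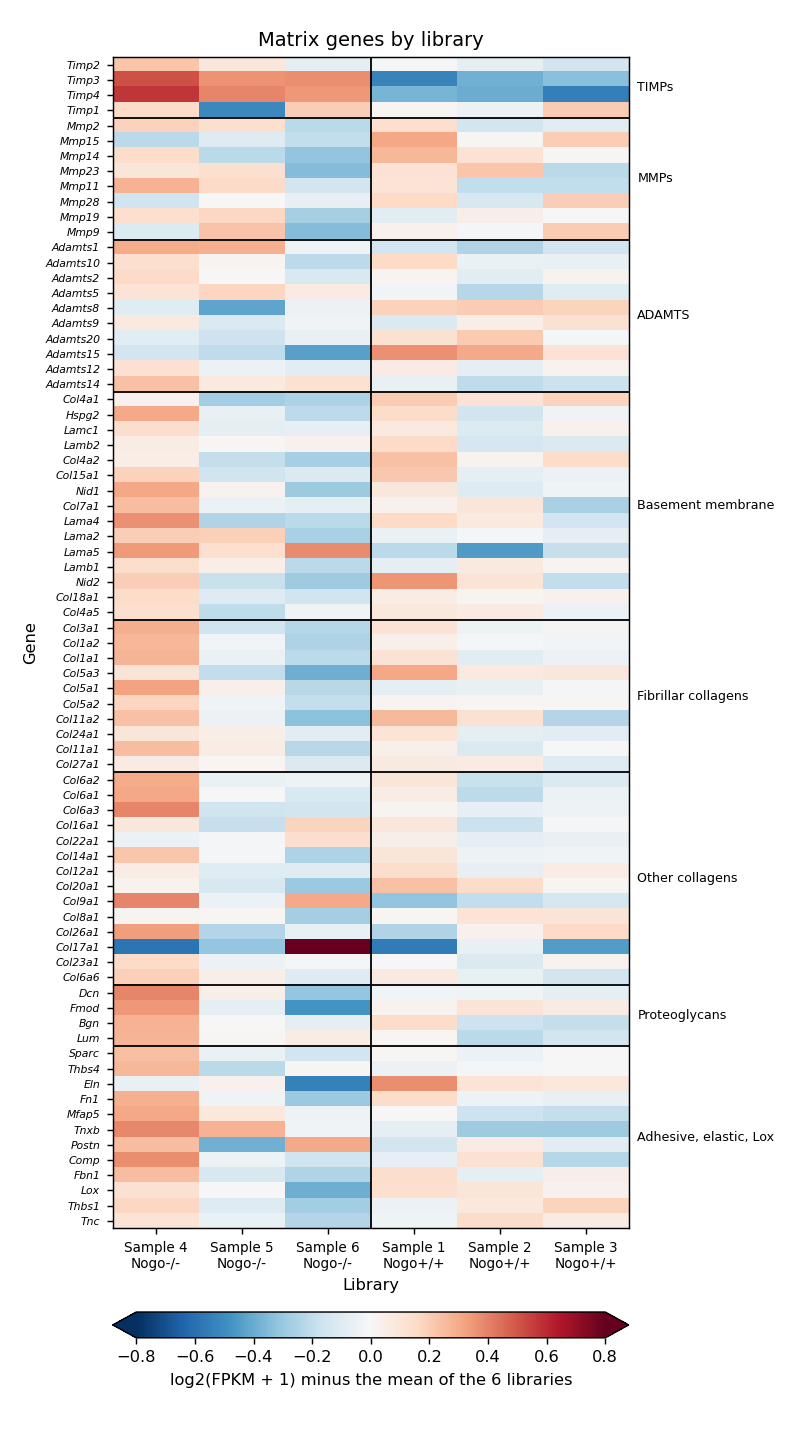
Log2(FPKM + 1) of 77 of the 78 matrix genes in each library relative to each gene's mean over the 6 libraries, Nogo-/- libraries (Samples 4, 5 and 6) left and Nogo+/+ libraries (Samples 1, 2 and 3) right, grouped by role, with red above and blue below the mean and the color scale ending at 0.8 either way. Sample 4 is the highest Nogo-/- library for 62 genes, while *Timp3* and *Timp4* are high in all 3 Nogo-/- libraries.

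Genes that act with these proteins, from lists chosen by function, were read from the same test. Of 22 measured genes for collagen modification, folding and processing, none rose or fell, with 4 at an unadjusted limma p under 0.05. Of 20 matrix receptors, *Dag1* and *Sdc4* fell and none rose. *Dag1* encodes dystroglycan, which ties laminin to the dystrophin complex of the fiber, and averaged 52.3 ± 1.26 FPKM in Nogo-/- muscle and 60.2 ± 1.03 FPKM in Nogo+/+ muscle (SD, n = 3 each, log2 fold change -0.23, limma adjusted p = 0.0284). *Sdc4*, a heparan sulfate proteoglycan of the cell surface, averaged 14.2 ± 1.04 FPKM in Nogo-/- muscle and 17.7 ± 0.888 FPKM in Nogo+/+ muscle (-0.35, adjusted p = 0.0400).

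Of 18 genes of the TGF-beta pathway, the main inducer of matrix synthesis, 2 rose and 1 fell. *Ccn2*, connective tissue growth factor, had 35.7, 20.3 and 31.2 FPKM in Nogo-/- muscle, against 13.2, 13.5 and 15.1 FPKM in Nogo+/+ muscle (log2 fold change 0.93, limma adjusted p = 0.0245). *Ccn2* is a classic TGF-beta target, and it was lowest in Sample 5 within the Nogo-/- group. With 1 library left out, it passed only without Sample 5 (adjusted p = 0.00074), the other 5 giving up to 0.108. *Smad3*, one of the signal transducers of that pathway, fell by 0.41 on the log2 scale (adjusted p = 0.0354).

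Of 15 other matrix proteases and inhibitors, *Adam19*, a membrane-bound metalloproteinase, fell (log2 fold change -0.60, limma adjusted p = 0.0233) and none rose. Of 32 other matrix proteins, *Adamtsl4*, an ADAMTS-like protein of fibrillin microfibrils that lacks protease activity, and *Ecm1* rose (0.60 and 0.38, adjusted p = 0.0173 and 0.0462), and *Vtn*, vitronectin, fell (-0.48, adjusted p = 0.0388). Leaving out 1 library at a time, *Adam19* passed in 3 of 6 cases, *Adamtsl4* and *Smad3* in 2, and *Dag1*, *Sdc4*, *Ecm1* and *Vtn* in 1. The shares of these lists that passed were 0% to 16.7%, against 4.64% of all genes.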

How the data were processed

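Total RNA from gastrocnemius of 3 Nogo-/- and 3 Nogo+/+ mice had been isolated with the RNeasy kit and made into TruSeq Stranded mRNA libraries for Illumina sequencing. The authors' processing, as their notes and methods list it, used CASAVA 1.8.2, then cutadapt 1.4.2 to remove adapters, STAR 2.6.1 for alignment on GRCm38.p6 and Cufflinks 2.2.1 for gene levels. The authors deposited FPKM for genes with at least 1 FPKM in at least 1 library. The strand setting of the quantification is not given in the sources used here. The columns are numbered and carry no replicate labels; the study's supplementary table heads Samples 1 to 3 as Nogo+/+ and Samples 4 to 6 as Nogo-/-. The table's 6 columns of normalized log2 values were not used.

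FPKM were quantile normalized, and log2(FPKM + 1) was tested with limma 3.58.1 (R 4.3.3) with a mean-variance trend, Benjamini-Hochberg adjusted over 12353 genes, two-sided, threshold 0.05. FPKM are not counts, so no count model was used. An exact permutation test of 3 against 3 libraries cannot go below p = 0.1, so none is given. P-values weigh the difference between groups against the spread between these libraries, which limma moderates over all genes. Depth was estimated from the steps between low values, 95.4% to 97.8% of which lay within 0.1 of a whole number of fragments.

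Named are the genes past the threshold, and in each role group the 2 with the highest mean FPKM and the 2 with the smallest p; others are given once. From the other lists, those past the threshold are named, and some genes are not reported here. The members and lists were chosen with earlier results of these data known. Alternatives were adding 0.1 in place of 1, keeping genes averaging 1 FPKM or more, skipping quantile normalization, scaling by the upper quartile, dropping the trend, weighting the libraries and leaving out each library in turn.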

Additional observations from a re-analysis of the deposited data

How the results depend on the processing

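*Timp3* and *Timp4* passed under all 6 other settings and with each library left out. *Lama5* passed under all 6 other settings, *Adamts15* under 5, and *Col4a1* and *Mmp15* under 4. Without quantile normalization 0 matrix genes were lower, and without a trend 1. With 1 library left out, 2 to 4 matrix genes were higher and 0 to 4 lower, against 83 to 196 and 105 to 238 of all genes. Among genes of small change the sign turned without quantile normalization for *Col1a1* (0.0076), *Hspg2* (0.0243), *Sparc* (0.0270) and *Thbs4* (0.0411). Over all settings together, those with 1 library left out included, the range of log2 fold change crossed 0 for *Adamts10* (-0.13 to 0.0004), *Col17a1* (-0.16 to 1.09), *Col1a1* (-0.17 to 0.05), *Col1a2* (-0.16 to 0.0740), *Col6a1* (-0.05 to 0.14), *Col6a2* (-0.0379 to 0.15), *Dcn* (-0.11 to 0.21), *Fmod* (-0.38 to 0.0210), *Hspg2* (-0.17 to 0.0757), *Mmp2* (-0.0623 to 0.11), *Sparc* (-0.12 to 0.05) and *Thbs4* (-0.13 to 0.11). The causes were not tested. Of the named genes' alternatives, 420 kept direction and side of the threshold, 112 kept direction but no longer passed, 8 came to pass and 24 changed direction. No paired analysis was possible because the columns carry no replicate numbers. Depth limits *Adamts15* and the other genes near 1 FPKM.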
